A study of Mus musculus with 6 samples.

Results

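Fas, Fasl, Tnfrsf10b, Casp1, Casp4, Casp6, Casp8 and Casp9 were chosen by name as death receptors, a death ligand and caspases, and they make up 8 of the 56941 genes counted. All 8 had enough reads to be tested. RNA had been sequenced from CD8+ T cells of B6 mouse spleen that were activated for 3 days with plate-bound anti-CD3, anti-CD28 and recombinant IL-2. At 24 h of culture, 3 samples (the S1P group) received sphingosine-1-phosphate (S1P), a lipid that signals through the S1PR receptors, at 5 µM, and 3 samples (the vehicle group) received vehicle. Both groups thus shared the activating antibodies and IL-2, and the labels name no allele beyond the B6 strain for either. The labels name naive CD8+ T cells as the starting cells, whereas the study's methods allow naive T cells or total splenocytes. The comparison asks how exposure to S1P altered the transcripts of activated CD8+ T cells.

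The death pathways in which these genes act are well described. Fas and Tnfrsf10b are cell surface receptors with an intracellular death domain. Their ligands Fasl and TRAIL draw them together, the adaptor Fadd then recruits procaspase-8, and active caspase-8 cleaves the executioner caspases. Caspase-9 is the initiator of the mitochondrial route, where it is activated on Apaf1, and caspase-6 is an executioner known for cleaving nuclear lamins. Caspase-1 and mouse caspase-4, also called caspase-11, belong to the inflammatory branch, which cleaves gasdermin D, and caspase-1 also matures interleukin-1β and interleukin-18. In T cells, Fas and Fasl are known for removing activated cells at the end of a response.

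Total counts were 13636095 to 17089831 per sample in the vehicle group and 12048880 to 17384084 in the S1P group. Of 13299 genes tested, 1687 were called higher (12.7%) and 1384 lower (10.4%) with S1P, where a call needs an edgeR adjusted p no greater than 0.05 and a change of 0.3 or more on the log2 scale. S1P replicate 2 stood apart, with 7.80% of its counts on mitochondrial genes against 4.10% to 4.93% in the other 5 samples. Its counts also differed from those of S1P replicates 1 and 3 over all genes (mean chi-square per gene 31.3 and 18.4). For the other pairs of replicates within a group this value was 3.81 to 5.98. Markers of CD8 T cells summed to 11999 to 13861 normalized counts in vehicle and 10140.1 to 11303 in S1P samples, with 2 of 5 markers called lower (Cd8a and Cd8b1) and none higher. Markers of other cells were also present. Summed normalized counts were 14478 to 17533 in vehicle and 15388 to 16707 in S1P samples for 6 B cell genes, with 1 called lower, and 3191 to 3786 against 3459 to 4368 for 3 CD4 T cell genes, with 1 called higher. Of 9 myeloid genes, which summed to 2242 to 2855 against 2628 to 2958, none of the 4 tested was called, and Lyz2 and Cd14 had at most 3 counts in every sample. Most of the myeloid sum came from Mpeg1 (means 1304 in vehicle and 1468 in S1P samples) and Cybb (1152 and 1210). Csf1r, Itgam and Adgre1 had at most 8 counts in any sample. The 4 NK cell genes summed to 26.3 to 30.3 against 22.4 to 46.6, and the 1 tested was not called. The part of these cells in the results was not tested, and in such bulk RNA fewer cells of a type and less RNA per cell cannot be told apart.

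Of the 8 genes, 3 rose with S1P: Casp6 by 1.77-fold, Fas by 1.41-fold and Casp4 by 1.33-fold. None of the 8 was called lower, and the other 5 did not pass the test. The 3 of 8 called higher stand beside 12.7% of all tested genes called higher. The study had already listed Fas, Casp4 and Casp6 as apoptosis genes enriched with S1P in these same samples. The share and median of the 8 are therefore descriptions and not an independent result. For 4 of the 8, the 3 called genes and Casp8, the S1P and vehicle values were fully separate, beside 45.6% of all tested genes. The median log2 fold change of the 8 was 0.14, against 0.01 over all tested genes. The 3 genes that rose were thus a receptor, an executioner caspase and an inflammatory caspase, while the initiators Casp8 and Casp9 and the ligand Fasl were not called. No gene of the 8 with a negative fold change had an unadjusted p under 0.05 in edgeR, and DESeq2 and limma-voom also called 0 of the 8 lower.

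**Figure D1:**
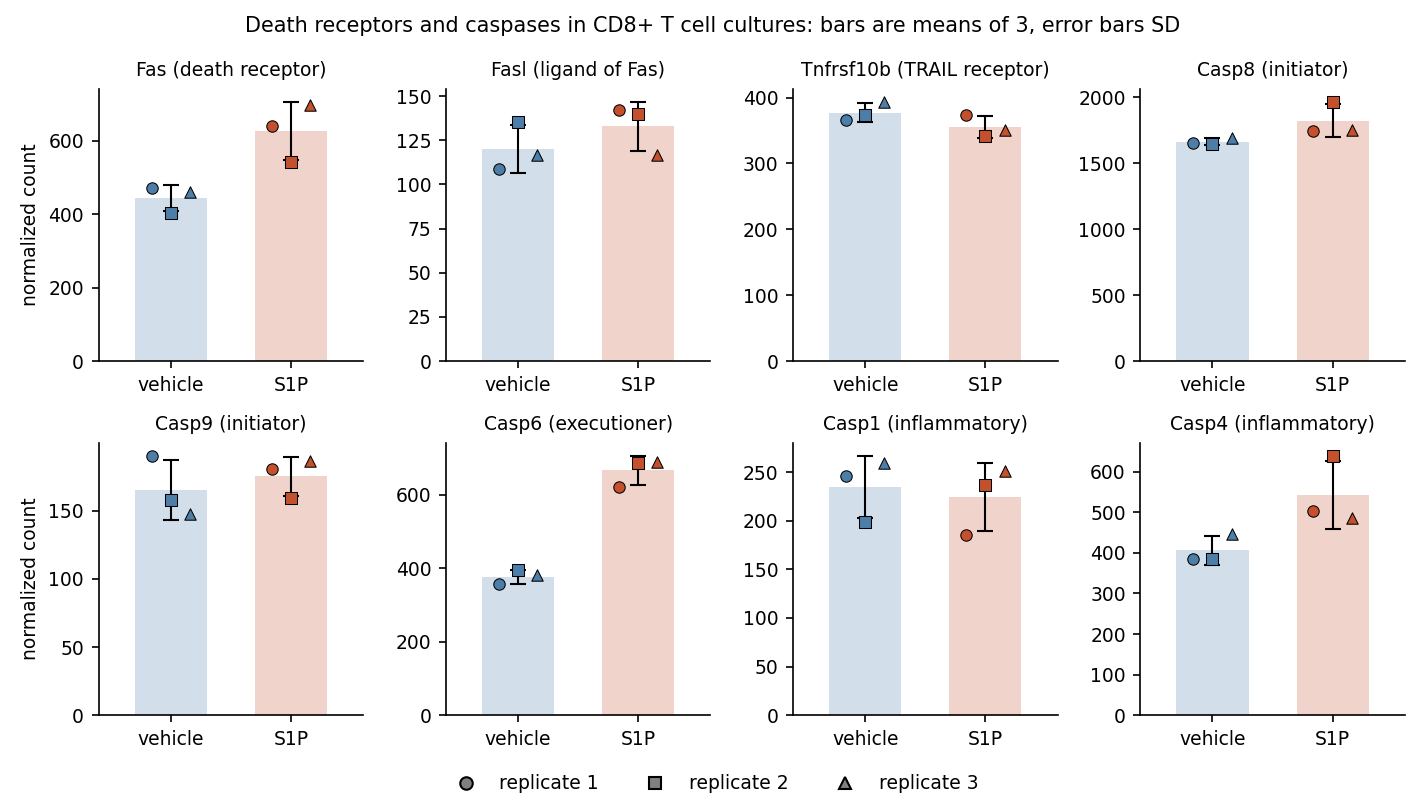
Normalized counts (TMM-scaled, vertical axis, starting at 0) of the 8 genes in each of the 6 samples, with vehicle in blue and S1P in red; symbols mark replicates 1, 2 and 3, bars the group means and error bars the SD (n = 3). The S1P samples lie above every vehicle sample for Casp6, Fas, Casp4 and Casp8, and the groups overlap for the other 4.

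Fas, the receptor of Fas ligand, lies on the forward strand at chr19:34268001-34305173 (GRCm39; ENSMUSG00000024778). Its normalized counts were 471, 403 and 461 in vehicle replicates 1 to 3 and 642, 542 and 698 in S1P replicates 1 to 3. Every S1P sample was above every vehicle sample, and the lowest S1P value was that of replicate 2. The means were 445 ± 36.4 and 627 ± 78.9 (SD, n = 3 each), with a log2 fold change of 0.50 (SE 0.10, 95% interval 0.27 to 0.72, edgeR adjusted p = 0.00474). The call held under all 14 alternative fits, in which the log2 fold change ranged from 0.41 to 0.59 and the adjusted p from 0.000198 to 0.0309. Without S1P replicate 2, the sample with the high mitochondrial share, the gene stayed called.

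Fasl, the ligand of Fas, was the least abundant of the 8 in counts, with 101 to 171 raw counts per sample. It lies on the reverse strand at chr1:161608258-161616075 (ENSMUSG00000000817). Normalized counts were 109, 135 and 117 in vehicle samples and 142, 139.7 and 117 in S1P samples. The groups overlapped, since S1P replicate 3 lay below vehicle replicate 2. The log2 fold change was 0.15 (SE 0.14, 95% interval -0.16 to 0.46, edgeR adjusted p = 0.447), so a rise as large as that of Casp4 lay inside the interval. Over the 14 alternatives it ranged from 0.080 to 0.24, without a call in any.

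Tnfrsf10b, the mouse TRAIL receptor, lies on the forward strand at chr14:70004916-70021860 (ENSMUSG00000022074). It gave normalized counts of 365, 373 and 393 in vehicle and 374, 341 and 351 in S1P samples. The spread was narrow and the groups overlapped, with S1P replicate 1 above vehicle replicates 1 and 2. Its log2 fold change was -0.08 (SE 0.09, 95% interval -0.27 to 0.10, edgeR adjusted p = 0.502), an interval that leaves out a change of 0.3 in either direction. Of its exonic 31-base words, 13.7% also occur in other annotated genes, the largest share among the 8, so reads from those stretches may not have been assigned to it.

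Casp8, the initiator caspase of the death receptors, lies on the forward strand at chr1:58834375-58886665 (ENSMUSG00000026029) and had the most reads of the 8. Normalized counts were 1654, 1642 and 1694 in vehicle samples and 1746, 1964 and 1753 in S1P samples. The groups did not overlap, but S1P replicate 2 was far above the other S1P samples, which exceeded the highest vehicle sample by little. The means were 1664 ± 27.3 and 1821 ± 124 (SD, n = 3 each), and the log2 fold change of 0.13 was not called (SE 0.07, 95% interval -0.02 to 0.28, edgeR adjusted p = 0.184). Without S1P replicate 2 it was 0.07 (edgeR adjusted p = 0.342, against a range of 0.118 to 0.571 over the 14 alternatives). Of its exonic 31-base words, 6.96% also occur in the annotated gene Gm70432.

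Casp9, the initiator of the mitochondrial route, lies on the forward strand at chr4:141520923-141546508 (ENSMUSG00000028914). Its normalized counts were 190.3, 158 and 148 in vehicle and 181, 159 and 186 in S1P samples. The highest and the lowest value both belonged to vehicle samples, so that the S1P values lay within the vehicle range. The log2 fold change was 0.09 (SE 0.13, 95% interval -0.20 to 0.37, edgeR adjusted p = 0.661). It was 0.20 without vehicle replicate 1 and 0.0067 without vehicle replicate 3, and was not called in either fit. Of its exonic bases, 5.73% lie under genes of the opposite strand, of which Cela2a had at most 4 counts in any sample and Gm56298 had none.

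Casp6, the executioner caspase, had the largest change of the 8. It lies on the forward strand at chr3:129695069-129707752 (ENSMUSG00000027997). Normalized counts were 356, 395 and 381 in vehicle samples and 621, 688 and 691 in S1P samples. The gap between the groups was wider than the spread within either. The means were 377 ± 19.6 and 667 ± 39.5 (SD, n = 3 each), a 1.77-fold rise (95% interval 1.56 to 2.00) and a log2 fold change of 0.82 (SE 0.08, edgeR adjusted p = 7.4e-05). The rise was called under all 14 alternative fits, with log2 fold changes of 0.78 to 0.87. It was the only one of the 8 whose interval lay wholly above the log2 value of 0.3 used as the threshold.

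The 3′ end of Casp6 overlaps that of Mcub, a gene for a subunit of the mitochondrial calcium uniporter, which lies on the opposite strand at chr3:129707425-129763869. Together with Gm46825 it covers 7.46% of the exonic bases of Casp6. Mcub rose as well, from raw counts of 210, 197 and 198 in vehicle samples to 445, 305 and 327 in S1P samples, with a log2 fold change of 0.98 (SE 0.10, edgeR adjusted p = 6.81e-05). The libraries kept the strand, but whether the counting used it is not given in the sources used here. If it did not, reads of both genes in the overlap cannot be told apart. The part of Mcub in the change of Casp6 was not tested.

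Casp1 and Casp4, the inflammatory caspases, are neighbours on the forward strand of chromosome 9, at chr9:5298508-5307290 (ENSMUSG00000025888) and chr9:5308828-5336783 (ENSMUSG00000033538), and Casp12 follows at chr9:5345415-5373034. The 2 tested genes of this cluster differed in outcome. Casp4 gave normalized counts of 386, 386 and 447 in vehicle samples and 503, 639 and 486 in S1P samples. All S1P values were above all vehicle values, with S1P replicate 2 well above the others and S1P replicate 3 close to the highest vehicle sample. The means were 406 ± 35.5 and 543 ± 83.8 (SD, n = 3 each), and the log2 fold change was 0.41 (SE 0.11, 95% interval 0.17 to 0.66, edgeR adjusted p = 0.0183).

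Of the 3 calls, only that of Casp4 was lost when single samples were left out. It was lost without vehicle replicate 1 (log2 fold change 0.37, edgeR adjusted p = 0.0816) and without vehicle replicate 2 (0.37, edgeR adjusted p = 0.0751). Without S1P replicate 2, in which both Casp4 and the mitochondrial share were highest, it fell under the fold threshold (0.29, edgeR adjusted p = 0.0249). Over all 14 alternatives the adjusted p ranged from 0.00626 to 0.0816, with a positive log2 fold change in each.

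Casp1 gave normalized counts of 246, 199 and 259.7 in vehicle samples and 185, 237 and 251 in S1P samples. The groups overlapped widely, with the lowest value in S1P replicate 1 and the highest in vehicle replicate 3. The log2 fold change was -0.08 (SE 0.14, 95% interval -0.39 to 0.22, edgeR adjusted p = 0.699) and turned to 0.05 without S1P replicate 1 (edgeR adjusted p = 0.804, against a range of 0.394 to 0.985 over the alternatives). Casp1 and Casp4 shared no exonic 31-base word. Casp12 had at most 1 count in any sample and was not tested.

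**Figure D2:**
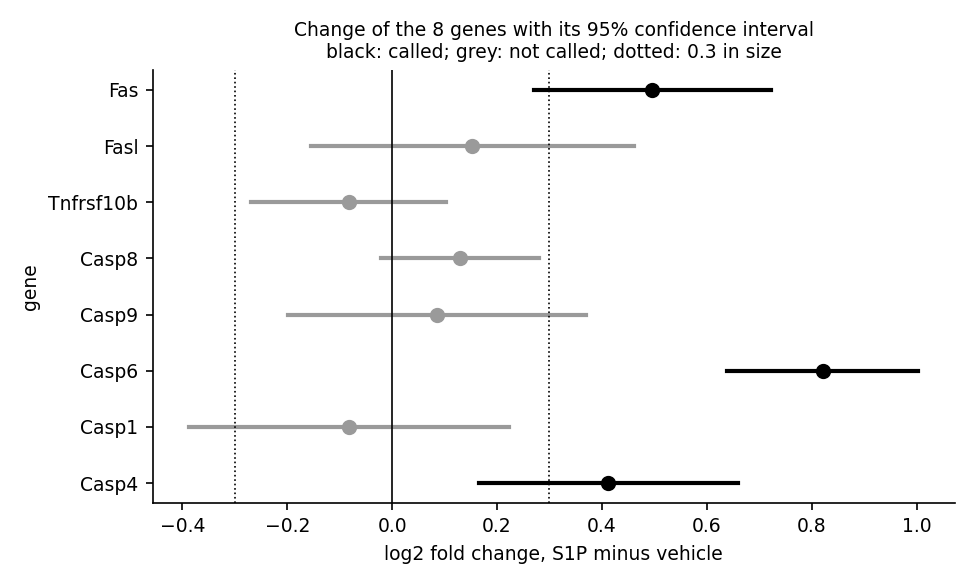
Log2 fold change of each gene, S1P minus vehicle, from edgeR on the horizontal axis, with 95% intervals as bars, called genes in black, other genes in grey and the threshold of 0.3 in either direction as dotted lines. Casp6 at 0.82, Fas at 0.50 and Casp4 at 0.41 are called, and the intervals of the other 5 genes include 0.

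The promoters of the 3 genes that rose are shown from 270 bases before the start of the canonical transcript through its first 30 bases, read from the GRCm39 assembly on the forward strand, so that the short motifs they share or do not share can be seen. They are chr3:129694799-129695098 for Casp6, chr19:34267789-34268088 for Fas and chr9:5308573-5308872 for Casp4. Capitals mark matches on either strand to 9 motifs: the GC box GGGCGG, AP-1 (TGANTCA), CRE (TGACGTCA), the C/EBP-ATF composite (TGATGNAA), the NF-kB consensus, the ISRE consensus, GAS (TTCNNNGAA), the E-box CACGTG and the TATA box (TATAAA).
Casp6 promoter: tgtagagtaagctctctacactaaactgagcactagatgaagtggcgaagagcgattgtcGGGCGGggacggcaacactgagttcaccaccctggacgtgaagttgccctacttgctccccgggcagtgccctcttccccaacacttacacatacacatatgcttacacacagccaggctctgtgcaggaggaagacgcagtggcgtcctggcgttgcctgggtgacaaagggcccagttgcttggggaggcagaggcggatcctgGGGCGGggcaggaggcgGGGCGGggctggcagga
Fas promoter: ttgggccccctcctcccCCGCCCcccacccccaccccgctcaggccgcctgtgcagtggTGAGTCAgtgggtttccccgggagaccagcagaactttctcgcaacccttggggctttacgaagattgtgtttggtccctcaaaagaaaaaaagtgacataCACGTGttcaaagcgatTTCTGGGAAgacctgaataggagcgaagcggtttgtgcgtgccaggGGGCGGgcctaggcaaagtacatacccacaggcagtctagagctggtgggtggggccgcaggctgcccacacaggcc
Casp4 promoter: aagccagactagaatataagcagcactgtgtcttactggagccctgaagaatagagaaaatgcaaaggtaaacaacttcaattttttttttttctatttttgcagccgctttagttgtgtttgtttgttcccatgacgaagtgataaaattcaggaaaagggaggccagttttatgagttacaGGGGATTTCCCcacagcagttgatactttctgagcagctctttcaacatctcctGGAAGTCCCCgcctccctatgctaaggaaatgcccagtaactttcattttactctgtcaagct
The Casp6 promoter held 3 GC boxes, 1 of them across the start site, and no other motif of the 9. The Fas promoter held 2 GC boxes, an AP-1 motif, an E-box and a GAS motif. The Casp4 promoter held no GC box. Its capitals are matches to the NF-kB consensus, in 1 stretch with overlapping matches from 87 to 77 bases before the start and in another from 33 to 24 bases before it. Among 21757 promoters of the same length, a GC box was in 41.2%, the NF-kB consensus in 8.96%, GAS in 9%, AP-1 in 7.29% and the E-box in 7.63%. No motif of the 9 occurred in all 3 promoters, and CRE (2.34% of promoters), the C/EBP-ATF composite (3.84%), ISRE (3.92%) and TATA (13.5%) had no match in the promoter of any of the 8 genes. The Casp6 and Fas promoters were rich in G and C (60.7% and 60.3%, with 14 and 13 CG pairs), whereas Casp4 had 41.0% and 3 CG pairs, against a median of 53.7% and 10 CG pairs. A match of letters is a description of the sequence and not evidence of binding.

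Levels of different genes were compared as counts per kilobase of exon, scaled for library size (RPKM with TMM factors). In vehicle samples Casp8 was the most abundant of the 8 per length, at 36.6 ± 0.601, followed by Fas at 13.0 ± 1.06 (SD, n = 3). Casp4 at 5.25 ± 0.458, Casp1 at 5.08 ± 0.688, Casp6 at 4.58 ± 0.237, Tnfrsf10b at 4.49 ± 0.172 and Fasl at 4.18 ± 0.472 came next, and each of these overlapped its neighbour in the order. Casp9 was the lowest at 1.36 ± 0.183, and Casp8, Fas and Casp9 each stood apart from their neighbours in every sample.

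With S1P the order changed in its middle. Casp8 at 40.1 ± 2.72 and Fas at 18.3 ± 2.31 remained the highest and Casp9 at 1.45 ± 0.119 the lowest (SD, n = 3). Casp6 came next at 8.09 ± 0.479, and Casp4 at 7.02 ± 1.08 overlapped it. Casp1 at 4.85 ± 0.753, Fasl at 4.63 ± 0.482 and Tnfrsf10b at 4.23 ± 0.200 followed, each overlapping its neighbour, and Casp1 did not overlap Casp4.

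**Figure D3:**
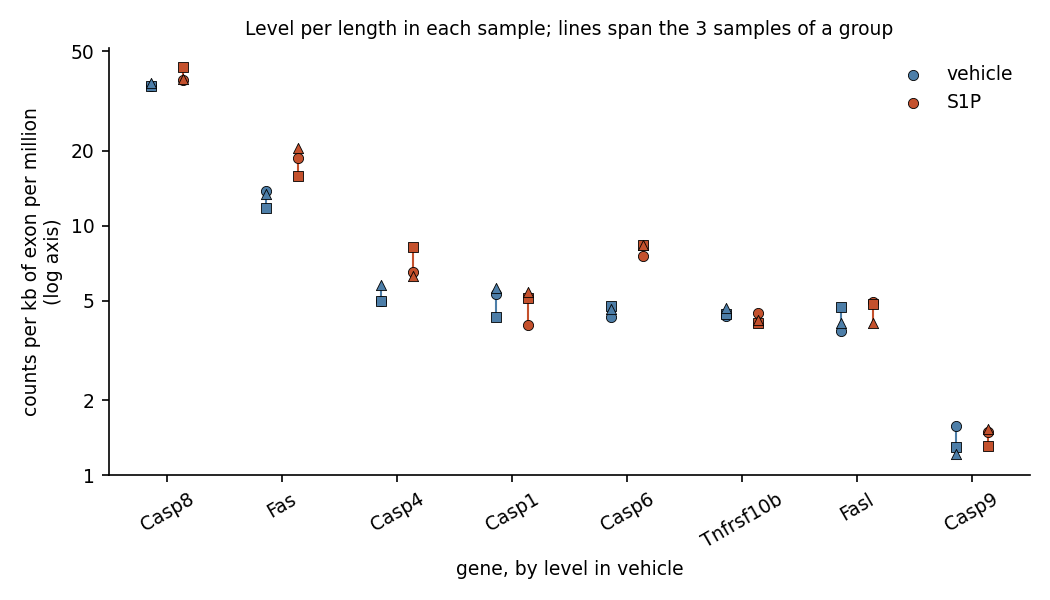
Counts per kilobase of exon, scaled for library size (RPKM with TMM factors), on a log axis for the 8 genes, ordered by the vehicle mean, with a point for each sample, vehicle in blue, S1P in red and lines that span the samples of a group. Casp8 is the highest in both groups (36.6 and 40.1) and Casp9 the lowest (1.36 and 1.45).

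Ratios of a pair of genes within 1 library need no scaling between libraries and were compared for 5 pairs with a two-sided exact permutation test, for which 3 against 3 samples allow no p under 0.1. P-values were adjusted over the 5 pairs by the Benjamini-Hochberg method.

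Cflar encodes c-FLIP, which resembles caspase-8 but lacks its protease activity and limits its activation at death receptors. Its normalized counts were 2119, 1807 and 2091 in vehicle and 2983, 3136 and 2730 in S1P samples, a log2 fold change of 0.56 (SE 0.08, edgeR adjusted p = 0.000609). The ratio of Casp8 to Cflar was 0.781, 0.909 and 0.810 in vehicle and 0.585, 0.626 and 0.642 in S1P samples. It was lower in every S1P sample, by 0.43 on the mean log2 scale (exact permutation p = 0.1, adjusted 0.25).

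The ratios of Fas to Fasl, Casp4 to Casp1 and Casp9 to Xiap overlapped between the groups. Fas to Fasl was 4.33, 2.98 and 3.95 in vehicle and 4.53, 3.88 and 5.97 in S1P samples (difference of log2 ratios 0.35, exact permutation p = 0.3, adjusted 0.375). Casp4 to Casp1 was 1.57, 1.94 and 1.72 against 2.72, 2.70 and 1.94 (0.48, exact permutation p = 0.2, adjusted 0.333). In S1P replicates 1 and 2 Casp4 exceeded Casp1 by more than in any vehicle sample, whereas S1P replicate 3 lay within the vehicle range. Casp9 to Xiap, the inhibitor that binds caspase-9, was 0.0787, 0.0654 and 0.0629 against 0.0681, 0.0627 and 0.0728 (-0.02, exact permutation p = 0.9). Xiap itself was not called (log2 fold change 0.11, edgeR adjusted p = 0.197).

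**Figure D4:**
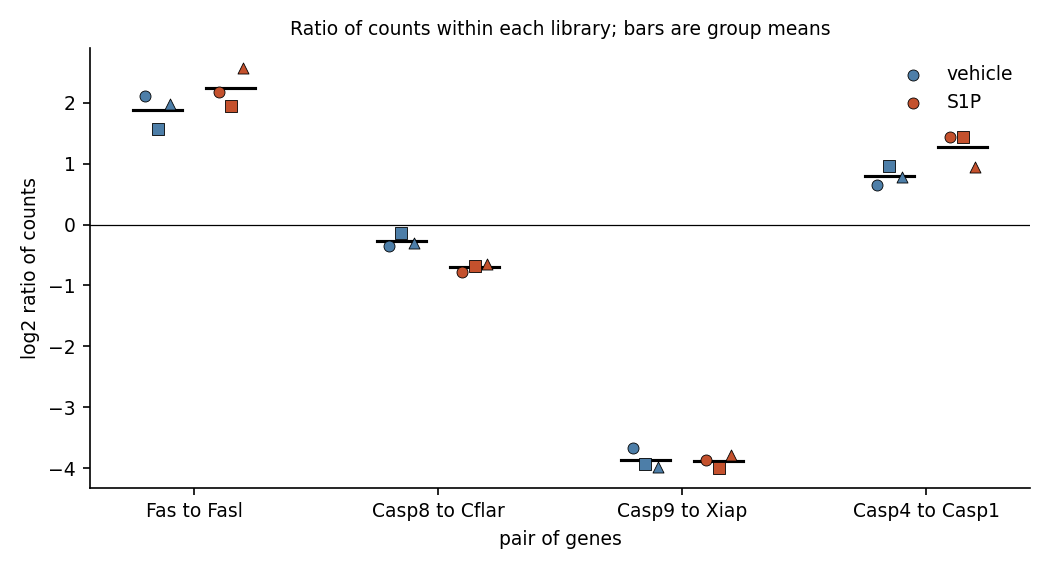
Log2 ratio of raw counts within each library for 4 pairs of genes, with a point for each sample, vehicle in blue and S1P in red, and lines for the group means. Of these 4, only Casp8 to Cflar, lower with S1P by 0.43, has groups that do not overlap.

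Another 74 genes that act with these 8 were listed by role, and 63 of them were tested. S1P raised 7 and lowered 7, beside 12.7% and 10.4% of all tested genes (23.1% in either direction), 49 were not called, and the median log2 fold change was -0.02. Tnfsf12, Ngfr, Edar, Casp12, Casp14, Nlrp3, Nlrp1a, Nlrp1b, Mefv, Il1a and Il1b were too low to test.

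Among the death ligands, 2 of 4 tested genes fell and none rose, beside 10.4% and 12.7% of all tested genes. Tnfsf10, which encodes TRAIL, the ligand of Tnfrsf10b, had normalized counts of 443, 454 and 426 in vehicle and 296, 309 and 304 in S1P samples. The groups were far apart relative to their spread (log2 fold change -0.54, SE 0.08, edgeR adjusted p = 0.000774). So TRAIL fell while its receptor was not called, and Fas rose while its ligand was not called. Lta, which encodes lymphotoxin alpha, fell from 1139 ± 217 to 800.5 ± 122 (SD, n = 3) with overlapping groups (log2 fold change -0.52, edgeR adjusted p = 0.0163). Its call was lost without vehicle replicate 1 or 3 or S1P replicate 3, with adjusted p of 0.0572 to 0.0835. Tnf was not called (-0.37, edgeR adjusted p = 0.0977). Of 7 further receptors and decoys tested 1 fell, beside 10.4% of all tested genes, and none rose. It was Tnfrsf21, a death receptor also called DR6, which went from 85.2 ± 4.53 to 47.8 ± 10.3 (SD, n = 3; log2 fold change -0.83, edgeR adjusted p = 0.00657), while the other 6 were not called. Among them the decoy receptor Tnfrsf11b had a larger log2 fold change of -0.91 but 9 to 29 counts per sample (SE 0.35, edgeR adjusted p = 0.0708).

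Of 15 adaptors and regulators of the receptor complexes tested, 4 rose and none fell, beside 12.7% and 10.4% of all tested genes. In 11 of the 15 the S1P and vehicle values were fully separate, beside 45.6% of all tested genes. Tnfaip3, which encodes the ubiquitin-editing enzyme A20, rose from 952 ± 55.8 to 1656 ± 113 normalized counts (SD, n = 3; log2 fold change 0.80, edgeR adjusted p = 4.82e-05). Pea15a, which encodes a death effector domain protein that binds Fadd, rose from 267 ± 16.7 to 405 ± 35.4 (0.61, edgeR adjusted p = 0.00106). Cflar also rose, as given above, and Birc2, which encodes the ubiquitin ligase cIAP1, rose from 1057 ± 18.5 to 1444 ± 1.66 (0.45, edgeR adjusted p = 0.000437). Birc3 (0.26, edgeR adjusted p = 0.0143) and Rnf31 (0.25, edgeR adjusted p = 0.0381) passed the test but not the fold threshold. Fadd, the adaptor that Fas requires, was not called although its groups did not overlap (-0.41, edgeR adjusted p = 0.0608), and neither was Ripk1 (0.28, edgeR adjusted p = 0.0627).

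Casp2, an initiator caspase outside the death receptor complex, was not called (-0.04, edgeR adjusted p = 0.716). In the apoptosome and its inhibitors, 1 of 9 tested genes rose and 2 fell, where 12.7% and 10.4% of all tested genes did, so the share that rose was near the background. Xaf1, which encodes a factor that binds Xiap, rose from 111 ± 27.4 to 311 ± 50.5 normalized counts (SD, n = 3; log2 fold change 1.47, SE 0.17, edgeR adjusted p = 0.000154) and was the one gene of the 63 to change by more than a log2 value of 1 and pass the test. Aven, which encodes an inhibitor of Apaf1, fell from 556 ± 33.8 to 405 ± 39.1 (-0.46, edgeR adjusted p = 0.00378). Htra2, a mitochondrial protease that counters Xiap, fell from 220.3 ± 14.3 to 164 ± 28.6 (-0.42, edgeR adjusted p = 0.034), a call lost when any vehicle replicate or S1P replicate 2 was left out, with adjusted p of 0.0527 to 0.118.

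In the inflammasome list, the setting in which caspase-1 is activated, 1 of 9 tested genes fell and none rose, a share of falls near the 10.4% of all tested genes. Pycard, which encodes the adaptor ASC, went from 193 ± 14.9 to 145 ± 11.0 normalized counts (SD, n = 3; log2 fold change -0.42, edgeR adjusted p = 0.0214), and its call was lost without vehicle replicate 1 or 3 (the lower of the 2 adjusted p was 0.0531). Gsdmd, the gasdermin that caspase-1 and caspase-4 cleave, was not called (-0.15, edgeR adjusted p = 0.245). Of the 3 necroptosis genes 1 rose, beside 12.7% of all tested genes. It was Zbp1, a sensor of unusual nucleic acids, which went from 1468 ± 61.8 to 2326 ± 426 (0.66, edgeR adjusted p = 0.00117), with S1P replicate 2 the highest. Ripk3 and Mlkl were not called (log2 fold changes 0.00 and 0.32, edgeR adjusted p = 0.996 and 0.0929). Among 13 caspase substrates 1 rose and 1 fell, shares below the 12.7% and 10.4% of all tested genes. Dffa, which encodes the inhibitor of the caspase-activated DNase, fell from 444 ± 11.0 to 331.5 ± 34.0 (-0.42, edgeR adjusted p = 0.00696). Rock1, a kinase that caspase cleavage activates, rose from 4229 ± 40.1 to 5462 ± 916 (0.37, edgeR adjusted p = 0.0184). The Rock1 value was 0.23 without S1P replicate 2, and the call was also lost without any 1 of the vehicle replicates, with adjusted p of 0.063 to 0.0722.

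**Figure D5:**
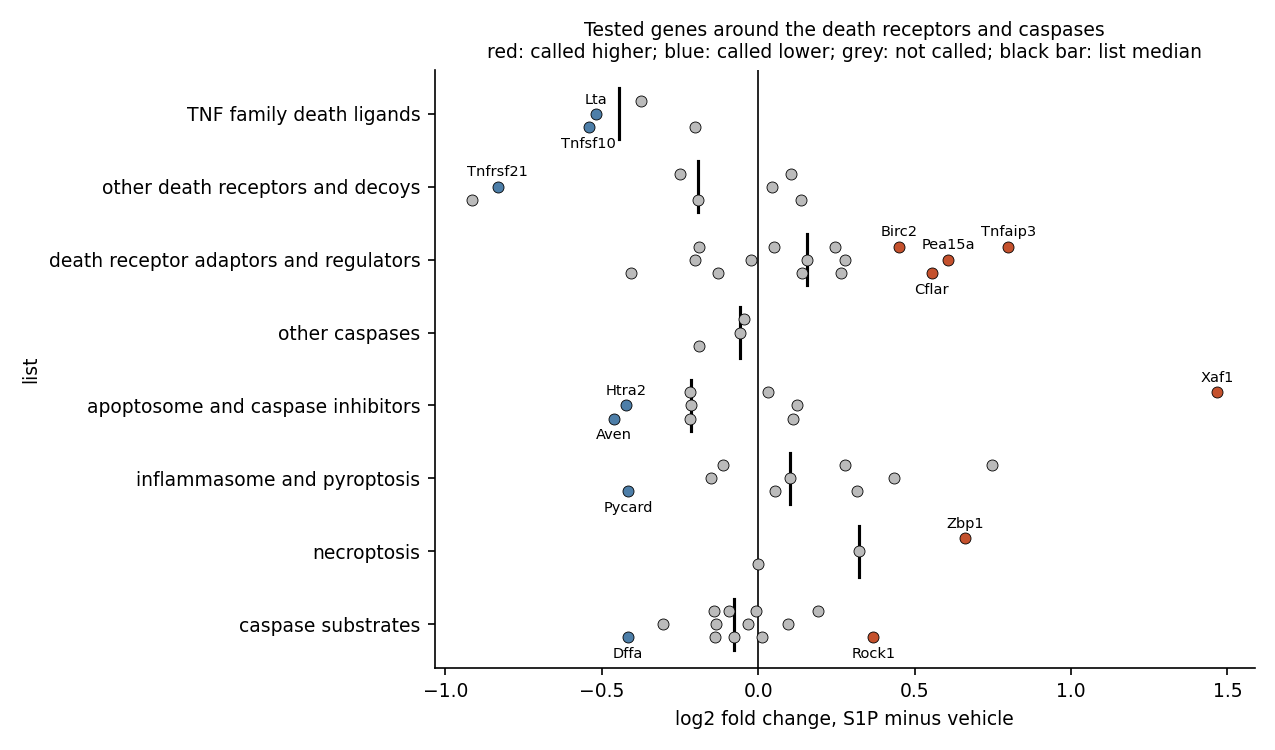
Log2 fold change (S1P minus vehicle) of each of the 63 tested genes in 8 lists by role, with genes called higher in red, called lower in blue, other genes in grey and the list median as a black bar. Of the 15 adaptors and regulators 4 rose, and of the 4 ligands 2 fell, beside 12.7% of all tested genes called higher and 10.4% called lower.

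Across the 6 samples, Pearson's r of log2 CPM was used to find the protein-coding genes, of 11273 tested, most like each gene that rose. For Fas these were Etaa1 (r = 0.995) and Dnase1l1 (0.986), for Casp4 Isg20 (0.998) and Ggh (0.995), and for Casp6 Zfp120 (0.998) and Hscb (0.996). Genes with r of at least 0.9 numbered 268 for Fas, 546 for Casp4 and 1101 for Casp6. Among the 8 genes themselves, Casp4 and Casp8, which were both highest in S1P replicate 2, were most alike (r = 0.97), ahead of Fas and Casp6 (0.85) and Casp4 and Casp6 (0.84). These values are descriptions over 6 points that share libraries and depth, and in the genes that rose they also carry the difference between the groups.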

How the data were processed

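Sample labels gave the treatment and replicate number of each of the 6 samples and call the replicates biological without naming separate animals, so p-values measure the spread between these samples. The deposited values are whole-number counts per gene that the authors made with Trim Galore, STAR and featureCounts, on GRCm39 per the submitters' processing notes, without normalization. Tool versions, the annotation release and the strand setting are not given in the sources used here. The authors tested with DESeq2. All columns were used.

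Symbols, exons and canonical start sites came from GENCODE vM39 (56323 of 56941 identifiers matched), and promoter bases from the GRCm39 assembly. Genes kept by filterByExpr were scaled by TMM and tested with edgeR 4.0.16 (quasi-likelihood, R 4.3.3), with Benjamini-Hochberg adjustment over 13299 genes. Normalized counts are counts scaled to the mean effective library size, and log2 CPM used a prior count of 2. The members and lists were chosen with earlier results of these data known. Named were all 8 members, the genes of the ratio pairs, neighbours in the Casp1 cluster, at most 3 called genes of each list, genes too low to test and the 2 genes most like each called member. Other genes, including Birc2 and Mcub, were chosen after their values were seen. Alternatives were DESeq2 1.42.0, limma-voom (limma 3.58.1), 3 other scalings, 2 other filters, 2 other fold thresholds, a replicate block, a pseudocount for ratios and the fit without each sample. Some listed genes and 1 ratio pair are not reported here. The fits were also run on simulated counts built from the means of these data, with an outcome not reported here. Intervals cover the spread between these samples only.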

Additional observations from a re-analysis of the deposited data

How the results depend on the processing

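Under DESeq2, limma-voom, RLE, upper-quartile and total-count scaling, both other filters and the replicate block, 3 members were called higher and 0 lower. With a log2 fold change of at least 1 required, 0 members, 1 pathway gene and 465 of all tested genes were called, against 3, 14 and 3071. Leaving out 1 sample at a time gave 2 to 3 members higher, 0 lower, 10 to 16 pathway genes and 2119 to 3228 of all genes. The lower member count came from Casp4, without vehicle replicate 1, vehicle replicate 2 or S1P replicate 2. The log2 fold change of Casp1 ranged from -0.186 without vehicle replicate 2 to 0.0506 without S1P replicate 1. The difference of log2 ratios of Casp9 to Xiap, S1P minus vehicle, ranged from -0.0838 to 0.0776. It was above 0 without vehicle replicate 1 (0.0776) or S1P replicate 2 (0.0354). For these, the cause was not tested. For the other pairs the leave-one-out difference of log2 ratios was 0.18 to 0.49 (Fas to Fasl), -0.48 to -0.37 (Casp8 to Cflar) and 0.40 to 0.64 (Casp4 to Casp1). Upper-quartile scaling gave 1838 genes higher and 1206 lower, and total-count scaling 1498 and 1511, against 1687 and 1384.

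The deviations of same-numbered samples correlated at 0.12, -0.006 and 0.05, against -0.10 to 0.05 for samples of different numbers. With 3 samples per group, these values cannot show whether same-numbered samples share an animal or a culture, and the labels do not say. With the replicate block, 3120 genes were called, with 14 pathway genes and no changed call among the members. At 101 to 171 counts, Fasl had a standard error of 0.14, and Casp8, at 1515 or more, 0.07.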
